A study of Homo sapiens with 6 samples.

Results

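The 10 genes described here encode the TGF-beta ligand TGFB1, its latency proteins LTBP3 and LTBP4, the signal transducer SMAD3, the feedback inhibitors SMAD6, SMAD7 and SKIL, and the ID proteins ID1, ID2 and ID3. They were chosen by name, as 10 of the 28495 genes of the deposited table, and all 10 passed the filter on low values (a mean over the 6 libraries of 0.5 or more in FPKM, fragments scaled by gene length and library size). NCI-H1299 is an established human lung cancer line, labelled lung adenocarcinoma. The cells of 3 libraries had complement factor B (CFB, a serine protease of the alternative complement pathway) silenced, here sh-CFB, and the other 3 were negative controls, here sh-NC. The sample titles name short hairpins while the table's columns carry names of the siRNA kind, so the reagent is not settled, and no time point, clone or separate culture is given for either group. No label calls the replicates separate cultures, and the p-values then speak only of the spread among the 6 libraries, which may be technical.

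TGF-beta is secreted in a latent complex in which LTBP proteins hold it to the matrix. Once released, it signals through receptor kinases that phosphorylate SMAD2 and SMAD3, while bone morphogenetic proteins (BMPs) signal through SMAD1, SMAD5 and SMAD9. Both branches switch on their own inhibitors: SMAD7 and SKIL are classical TGF-beta feedback genes, and SMAD6 is foremost a BMP feedback gene. ID1, ID2 and ID3 are well-known BMP targets, although ID genes also answer to other signals. ID proteins carry a helix-loop-helix without a DNA-binding region and keep E proteins such as TCF3 from binding DNA.

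The 6 libraries held 26.2 to 40.0 M (M, 1e6) reads. The silencing can hardly be checked at these depths, since CFB itself had 0, 0 and 2 reads in the sh-CFB libraries, against 1, 6 and 5 in the controls. Of the line's markers, KRT8 (31.8 to 55.2 FPKM), KRT18 and VIM were plain, while EPCAM, CDH1 and KRT19 stayed at or below 0.218 FPKM. Summed markers of fibroblasts, immune cells and endothelial cells were at most 0.287 FPKM in any library, with 4 of 6, 3 of 5 and 4 of 4 markers in the table. The libraries also differed along GC content: the Spearman correlation, across genes, of a library's deviation from the gene mean with GC was 0.60, -0.10 and -0.16 in sh-CFB replicates 1, 2 and 3 and -0.55, -0.25 and 0.23 in sh-NC replicates 1, 2 and 3.

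ID1 fell while ID3 stood above its controls, so the 250 bases before their RefSeq starts (GRCh38.p14) are shown, 5′ to 3′ along each gene. The same window of SMAD6 is shown for a sequence that few promoters hold, and was chosen after the windows of all 10 genes were searched. The expression of SMAD6 did not pass the test. Capitals mark matches, on either strand, to CAGAC (the SMAD box), GGCGCC (a GC-rich motif bound by BMP SMADs), GTCTAGAC (a palindrome of SMAD boxes that is its own reverse complement), CCGCCC (the GC box) and TATAAA. The motif GGCGCC, too, reads the same on both strands. The ID1 window is chr20:31605039-31605288 on the forward strand, the ID3 window is chr1:23559502-23559751 on the reverse strand, and the SMAD6 window is chr15:66701986-66702235 on the forward strand.
ID1: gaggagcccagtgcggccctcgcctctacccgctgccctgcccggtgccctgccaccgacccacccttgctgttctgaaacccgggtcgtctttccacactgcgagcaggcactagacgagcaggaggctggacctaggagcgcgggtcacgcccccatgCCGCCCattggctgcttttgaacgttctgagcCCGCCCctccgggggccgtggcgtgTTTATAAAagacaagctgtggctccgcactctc
ID3: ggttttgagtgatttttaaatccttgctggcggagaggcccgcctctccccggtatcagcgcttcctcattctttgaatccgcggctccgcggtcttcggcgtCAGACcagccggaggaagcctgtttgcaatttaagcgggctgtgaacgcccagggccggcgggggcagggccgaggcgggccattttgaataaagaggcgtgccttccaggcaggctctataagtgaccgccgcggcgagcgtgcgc
SMAD6: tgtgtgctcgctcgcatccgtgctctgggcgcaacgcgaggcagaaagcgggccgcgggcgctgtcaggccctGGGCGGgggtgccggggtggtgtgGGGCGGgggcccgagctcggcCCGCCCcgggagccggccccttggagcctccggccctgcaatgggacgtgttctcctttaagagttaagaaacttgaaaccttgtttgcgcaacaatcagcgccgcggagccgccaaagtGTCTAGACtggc

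The ID1 window held 2 GC boxes and a TATAAA that begins 31 bases before the start, with an overlapping match on the other strand, and no match to the 3 SMAD-type motifs. The ID3 window held a single SMAD box, 147 bases before the start, and none of the other motifs. The SMAD6 window held the palindrome, which begins 12 bases before the start, and 3 GC boxes. Over all 35116 windows of this length, 0.182% held GTCTAGAC, 38.0% CAGAC, 16.4% GGCGCC, 42.6% CCGCCC and 10.7% TATAAA. All 10 genes had at least 1 window, 18 in all, and among them GTCTAGAC was found in that of SMAD6 only. A match describes letters and not binding, and elements farther away lie outside these windows.

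Of the 10 genes, ID1 fell and LTBP4 rose in sh-CFB, and the other 8 did not pass the test (limma on log2(FPKM + 0.5), Benjamini-Hochberg adjusted p under 0.05 over 12466 tested genes). The 2 called genes stand beside a background of 7.45% of all tested genes called, 1.74% higher and 5.71% lower, and with 10 genes a count of 2 is not read as a result about the group. Groups did not overlap for 5 of the 10, TGFB1, LTBP3, LTBP4 and ID3 above and ID1 below the controls. Over all tested genes that share was 33.7%, with 10% above and 23.6% below. Over all tested genes the median log2 difference was -0.15, and median-of-ratios scaling moved it to 0.02, so some differences depend on which centre is used. Relative to the median tested gene, the fall of ID1 was -0.55 and not -0.70, and the rise of LTBP4 was 0.62 and not 0.47.

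**Figure D1:**
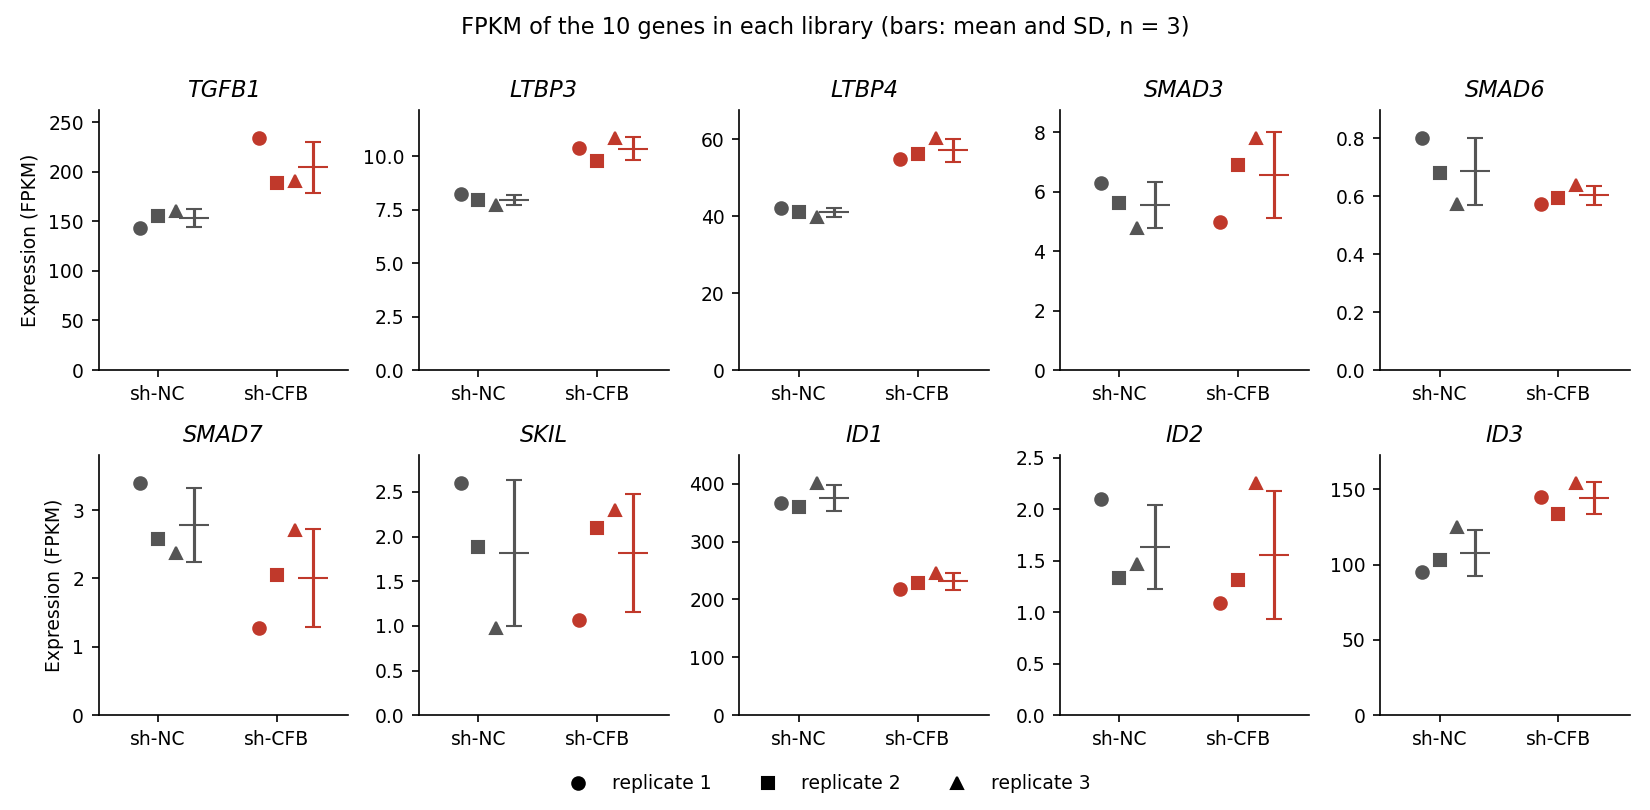
FPKM of each of the 10 genes (y axes start at 0) in the 3 sh-NC libraries (grey) and the 3 sh-CFB libraries (red), with symbols for replicates and bars for the mean and SD. ID1 lies lower in every sh-CFB library (219 to 247 against 359 to 402), LTBP4 and ID3 lie higher in every one, and SKIL and ID2 are spread over the same range in both groups.

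The ligand TGFB1 was abundant. It lies on chromosome 19 from 41301587 to 41353911 (GRCh38, reverse strand) and was read at 235, 189 and 190.2 FPKM in sh-CFB replicates 1, 2 and 3 and at 144, 156 and 161 in the sh-NC libraries. All 3 sh-CFB libraries stood above all 3 controls, and sh-CFB replicate 1 stood highest. The means were 205 ± 25.9 and 153 ± 8.73 FPKM (SD, n = 3 each), a log2 difference of 0.41 (SE 0.11), which did not pass (limma adjusted p = 0.0711). Relative to the median tested gene the difference was 0.55.

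LTBP4, which binds latent TGF-beta and supports elastic fibre assembly, rose. The gene lies on chromosome 19 from 40592883 to 40629818 (forward strand), on the same chromosome as TGFB1. It was read at 55.0, 56.1 and 60.5 FPKM in the sh-CFB libraries, against 42.2, 41.0 and 39.9 in the controls. The groups were well apart and narrow, at 57.2 ± 2.92 and 41.1 ± 1.16 (SD, n = 3 each). The log2 difference was 0.47 (SE 0.09), or 1.39-fold (limma adjusted p = 0.0218). This call was close to the threshold: the adjusted p was 0.0538 with FPKM rescaled to equal totals and 0.0554 with median-of-ratios factors, and it was 0.0631 without the intensity trend. Of the fits that left out 1 library, only that without sh-CFB replicate 1 kept the call (0.0340). Leaving out sh-CFB replicate 2 gave 0.0948, sh-CFB replicate 3 gave 0.0691, and sh-NC replicate 1 gave 0.0641, while sh-NC replicate 2 gave 0.132 and sh-NC replicate 3 gave 0.0514.

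LTBP3, a second latency protein, known for its role in bone and tooth, was less abundant than LTBP4 per length of gene. It gave 10.4, 9.78 and 10.9 FPKM in the sh-CFB libraries, against 8.21, 7.94 and 7.72 in the controls. Its groups did not overlap either, and its log2 difference of 0.36 (SE 0.10) did not pass (limma adjusted p = 0.0781). The LTBP4 to LTBP3 ratio within a library, which a single scaling factor per library cannot change, was 5.30, 5.74 and 5.57 in the sh-CFB libraries, against 5.15, 5.16 and 5.17 in the controls, slightly higher in each sh-CFB library. Quantile normalization, which is not a single factor, put LTBP3 (0.51) above LTBP4 (0.50) in log2 difference.

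TGFB1, LTBP3 and LTBP4 share a high GC content of their longest transcript, at 63.5%, 67.8% and 66.7%. Among the 966 tested genes with a GC content of at least 63%, the median log2 difference was 0.17 and 7.56% were called higher, against -0.15 and 1.74% over all tested genes. After each library was corrected for GC content and length, LTBP4 stood at 0.32 (limma adjusted p = 0.0480), TGFB1 at 0.30 (adjusted p = 0.0499) and LTBP3 at 0.20 (adjusted p = 0.161), where 10.7% of all tested genes were called.

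SMAD3, which carries the TGF-beta signal to the nucleus, was read at 4.98, 6.91 and 7.82 FPKM in the sh-CFB libraries, against 6.29, 5.62 and 4.76 in the controls. The groups overlapped through sh-CFB replicate 1, the lowest of its group. The log2 difference was 0.21, with a 95% interval from -0.22 to 0.64 (limma adjusted p = 0.521). With GC and length corrected, SMAD3 stood at 0.47 and passed (adjusted p = 0.0234).

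The inhibitors gave no call. SMAD7, which blocks the receptors, was at 1.28, 2.05 and 2.70 FPKM in the sh-CFB libraries, against 3.40, 2.57 and 2.37 in the controls, from 132 to 529 reads per library. Of its sh-CFB libraries 2 lay below every control and replicate 3 did not. The log2 difference of -0.41 had a 95% interval from -0.98 to 0.15 (limma adjusted p = 0.328), and it shrank to -0.05 without both replicate 1 libraries. SMAD6, which competes with SMAD4 for the BMP SMADs, was the least abundant of the 10 genes, at 0.575, 0.595 and 0.639 FPKM in the sh-CFB libraries, against 0.803, 0.680 and 0.575 in the controls. Its log2 difference was -0.10, with a 95% interval from -0.47 to 0.26 (limma adjusted p = 0.735), and it was 0.02 with median-of-ratios factors.

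SKIL, a corepressor that sits on SMAD complexes, varied more within groups than between them. It gave 1.06, 2.10 and 2.29 FPKM in the sh-CFB libraries, against 2.60, 1.88 and 0.971 in the controls, and its lowest values were in sh-NC replicate 3 and sh-CFB replicate 1. The group means were 1.82 ± 0.661 and 1.82 ± 0.817 (SD, n = 3 each), a log2 difference of 0.02 with a 95% interval from -0.74 to 0.78 (limma adjusted p = 0.975). The longest SKIL transcript is AT-rich, with a GC content of 33.4%. The 201 tested genes with a GC content under 35% had median deviations of -0.43, 0.12 and 0.12 (log2) in sh-CFB replicates 1, 2 and 3 and 0.34, 0.06 and -0.20 in the sh-NC replicates, lowest in the same libraries as SKIL. After the GC and length correction SKIL stood at 0.18 with an SE of 0.14, against an SE of 0.33 before it (limma adjusted p = 0.447).

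ID1 was the most abundant of the 10 genes, and it fell. It lies on chromosome 20 from 31605283 to 31606515 (forward strand), and 7074 to 17804 reads stood behind each value. It reached 219, 228 and 247 FPKM in the sh-CFB libraries, against 366, 359 and 402 in the controls, so the highest sh-CFB library was far below the lowest control. The means were 231 ± 14.1 and 376 ± 22.9 (SD, n = 3 each), a log2 difference of -0.70 (SE 0.10, limma adjusted p = 0.0130), or 0.616-fold. In bulk RNA a lower level in each cell and fewer cells with a high level cannot be told apart. The two-sided exact permutation p was 0.1, the smallest that 3 libraries against 3 can give.

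The fall of ID1 kept its sign in each of the 20 other settings and passed in 14, among them the GC and length correction (-0.78, limma adjusted p = 0.00938). It did not pass with median-of-ratios factors (-0.49, adjusted p = 0.179, or 0.134 with voom), in the 2 fits with replicate numbers as a block, without sh-CFB replicate 2 (-0.69, adjusted p = 0.0654) or without sh-NC replicate 2 (-0.73, adjusted p = 0.0829). The fits without a library left 39 and 20 changed genes in the whole table, against 929 with all libraries.

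ID3, the second abundant ID gene, stood on the other side. It lies on chromosome 1 from 23557918 to 23559794 (reverse strand) and gave 145, 133 and 154 FPKM in the sh-CFB libraries, against 94.9, 103 and 125 in the controls, with no overlap. The log2 difference of 0.43 (SE 0.12) did not pass (limma adjusted p = 0.0761). It passed after the GC and length correction (0.40, adjusted p = 0.0420), after quantile normalization (0.44, adjusted p = 0.0461, with 8.83% of all tested genes called) and without sh-NC replicate 3 (0.54, adjusted p = 0.0445), and it was positive in all 20 other settings. GC content was alike for both genes, at 57.2% in ID3 and 58.6% in ID1.

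The ratio of ID3 to ID1 within a library is not changed by a single scaling factor per library, though quantile normalization and the GC and length correction can change it. It was 0.663, 0.584 and 0.626 in the sh-CFB libraries, against 0.259, 0.287 and 0.310 in the controls, or 0.624 ± 0.0399 against 0.286 ± 0.0255 (SD, n = 3 each). The lowest sh-CFB ratio was well above the highest control ratio, and the gap between group means was several times either SD. On the log2 scale the ratio differed by 1.13, or 2.19-fold. This ratio was chosen after its values were seen and is given without a test.

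**Figure D2:**
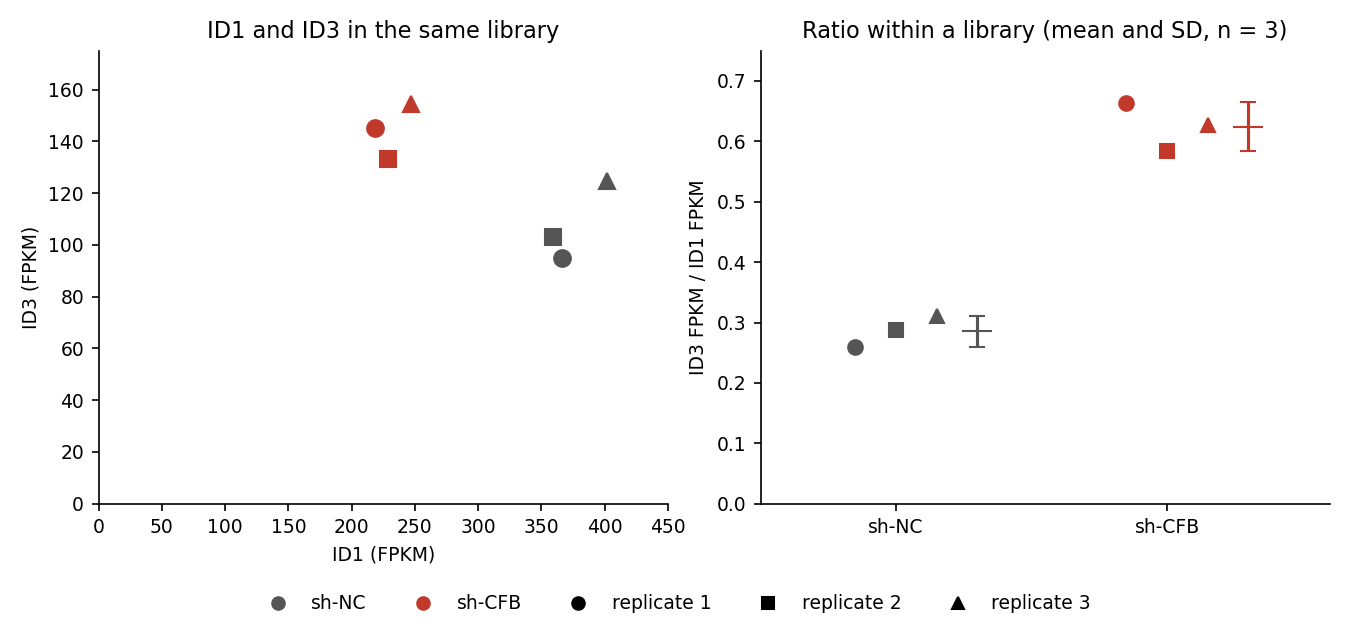
Left, ID3 FPKM (y axis) against ID1 FPKM (x axis) in each library; right, the ratio of ID3 to ID1 by group with mean and SD. The 3 sh-CFB libraries lie up and to the left of the 3 sh-NC libraries, and their ratios of 0.584 to 0.663 do not meet the control ratios of 0.259 to 0.310.

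ID2 was a minor member of the family, at 1.09, 1.31 and 2.26 FPKM in the sh-CFB libraries, against 2.10, 1.33 and 1.47 in the controls. Its highest values were in sh-CFB replicate 3 and sh-NC replicate 1, and the groups overlapped. The log2 difference was -0.08, with a 95% interval from -0.66 to 0.50 (limma adjusted p = 0.872), and it was 0.07 with median-of-ratios factors. ID4 was below the filter, with a mean of 0.253 FPKM. ID1, ID2 and ID3 together summed to 365, 363 and 403 FPKM in the sh-CFB libraries, against 463, 464 and 528 in the controls. ID1 made up 61.3 ± 1.5% of that sum in sh-CFB and 77.5 ± 1.47% in sh-NC, and ID3 38.3 ± 1.52% and 22.1 ± 1.56% (SD, n = 3 each).

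Set side by side, the ID targets and the feedback genes overlapped as groups. The mean log2 difference was -0.12 over ID1, ID2 and ID3 and -0.16 over SKIL, SMAD6 and SMAD7, against -0.15 for the median tested gene. Per library, the ID mean minus the feedback mean on log2(FPKM + 0.5) came to 4.68, 4.30 and 4.45 in the sh-CFB libraries, against 4.16, 4.32 and 4.80 in the controls, and the groups overlapped. The spread inside the ID group, from -0.70 for ID1 to 0.43 for ID3, was larger than the distance of 0.05 between the group means. That distance changed sign with single libraries left out, from -0.08 without sh-NC replicate 1 to 0.24 without sh-NC replicate 3, and was -0.06 without sh-CFB replicate 1 and -0.01 without sh-NC replicate 2. For SKIL and SMAD7 alone, without the BMP-linked SMAD6, the mean log2 difference was -0.20.

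**Figure D3:**
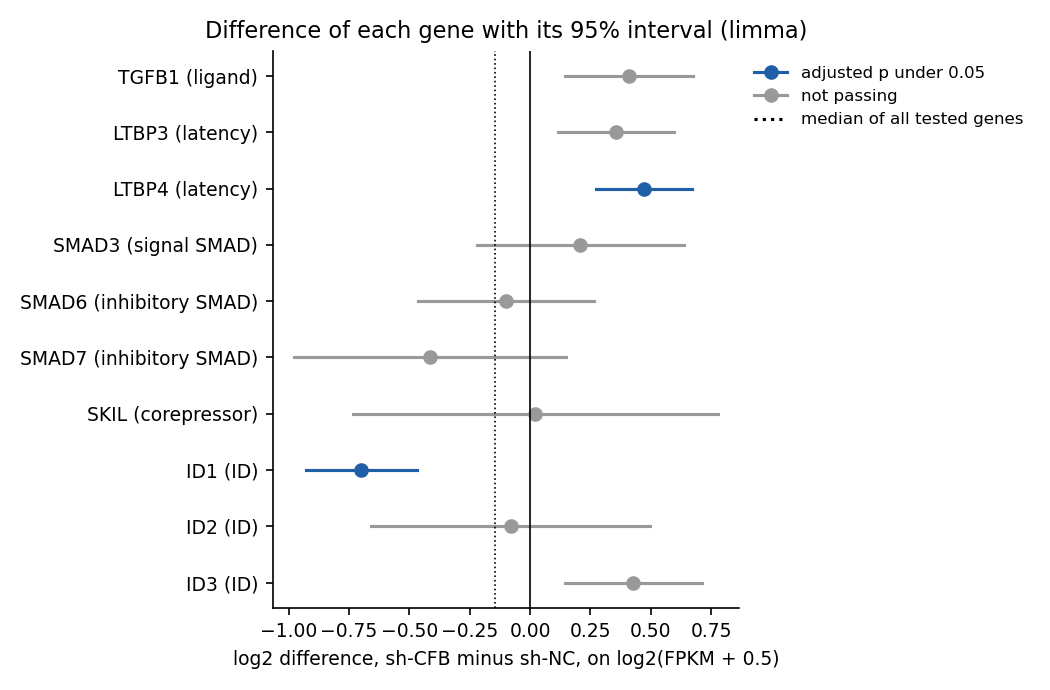
Log2 difference (sh-CFB minus sh-NC, x axis) of each gene with its 95% interval from limma, ordered by role. Only LTBP4 (0.47) and ID1 (-0.70) pass the test (blue), and the intervals of SMAD3, SMAD6, SMAD7, SKIL and ID2 include both 0 and the median tested gene (dotted).

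By mean level over all libraries, per length of gene, the order was ID1 (303 FPKM), TGFB1 (179), ID3 (126), LTBP4 (49.1), LTBP3 (9.15), SMAD3 (6.06), SMAD7 (2.39), SKIL (1.82), ID2 (1.59) and SMAD6 (0.645). SMAD7, SKIL and ID2 overlapped in their library values and have no clear order. ID1 and TGFB1 exchanged their order in sh-CFB replicate 1 only, where TGFB1 was at 235 and ID1 at 219 FPKM. Only 155 of the 12466 tested genes had a higher mean level than ID1.

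The rest of the pathway was followed in 10 gene lists, beside 7.45% of all tested genes called, 1.74% higher and 5.71% lower. The lists are short, and their counts are not read as results about the lists. Among TGF-beta ligands, latency and activation genes, 1 of 10 tested genes rose (LTBP4), 0 fell and 9 did not pass, with a median log2 difference of 0.19. In the receptor lists 0 of 6 tested TGF-beta and activin receptors and 0 of 4 tested BMP receptors and coreceptors changed, with medians of -0.21 and -0.17. By limma 0 genes of either list had an unadjusted p under 0.05, against 3225 of all 12466 tested genes, and 4 genes of the ligand and latency list did (TGFB1, LTBP3, LTBP4 and THBS1). The most abundant receptors of each list were ACVR1B, an activin receptor (log2 difference -0.36, limma adjusted p = 0.323), and ACVR1, a BMP receptor (-0.19, adjusted p = 0.647). Their means over all libraries were 5.96 and 2.32 FPKM, with 4710 and 7573 of the 12466 tested genes at a higher mean level.

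Among the BMP, GDF and activin ligands 0 of 6 tested genes changed, and 1 had an unadjusted limma p under 0.05. That gene was GDF15, a stress-induced member of the family, which stood at 7.98, 5.83 and 7.66 FPKM in the sh-CFB libraries, against 24.2, 20.0 and 8.55 in the controls. The control library nearest to the sh-CFB values was replicate 3, and the difference of -1.13 did not pass (limma adjusted p = 0.0902). BMP4, named here for its role and after its values were seen, was at 1.14 ± 0.286 FPKM in sh-CFB and 0.983 ± 0.121 in sh-NC (SD, n = 3 each).

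The secreted antagonists held 1 called gene among 4 tested, and 2 had an unadjusted limma p under 0.05. Over all tested genes 7.45% were called, and 3225 of 12466 had an unadjusted limma p under 0.05. The second was NOG, the BMP antagonist noggin, named after its values were seen, at 9.89 ± 1.16 FPKM in sh-CFB and 13.8 ± 2.97 in sh-NC (SD, n = 3 each), a difference of -0.44 that did not pass (limma adjusted p = 0.169). FSTL3, a follistatin-like protein that binds activin, rose from 15.2, 16.3 and 15.9 FPKM in sh-NC to 26.4, 23.4 and 25.2 in sh-CFB. The groups were far apart, with a log2 difference of 0.64 (SE 0.09, limma adjusted p = 0.0133), larger than that of LTBP4. FSTL3 is also GC-rich (64.4%), and after the GC and length correction it stood at 0.52 (adjusted p = 0.0121). It was at 0.0552 with median-of-ratios factors, 0.0589 without sh-CFB replicate 2 and 0.0861 without sh-NC replicate 2, each an adjusted p.

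No gene of the SMAD lists passed. Of 6 receptor-regulated and common SMADs 0 passed, with a median log2 difference of -0.13, and 0 had an unadjusted limma p under 0.05. Of 13 tested inhibitory SMADs, corepressors and ubiquitin ligases 0 passed and 1 had an unadjusted limma p under 0.05, with a median of -0.19. TGIF2, a corepressor and the most abundant of that list, stood at -0.19 (adjusted p = 0.356). The gene with the low unadjusted p, named after its values were seen, was the related corepressor TGIF1, at 9.41 ± 0.684 FPKM in sh-CFB and 12.9 ± 1.87 in sh-NC (SD, n = 3 each, limma adjusted p = 0.0992).

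Among the TGF-beta target genes, the called genes lay in both directions. Of 21 tested genes 1 rose, 2 fell and 18 did not pass, 6 had an unadjusted limma p under 0.05, and the median log2 difference was 0.02. Over all tested genes 7.45% were called, and 3225 of 12466 had an unadjusted limma p under 0.05. The counts of this list are not read as a result about it. GADD45B, a stress sensor, rose by 0.70, while TPM1, a tropomyosin, and CCN2, a matricellular factor, fell by 0.72 and 0.50 (limma adjusted p = 0.0117, 0.0164 and 0.0463). Corrected for GC and length, TPM1 and CCN2 stood at -0.44 and -0.30 and did not pass (limma adjusted p = 0.0721 and 0.0858). CCN2 did not pass in any fit that left out 1 library (adjusted p = 0.0560 to 0.136) or with median-of-ratios factors (0.236). With median-of-ratios factors the adjusted p was 0.0516 for GADD45B and 0.0574 for TPM1. Without sh-CFB replicate 2 the adjusted p was 0.0570 for GADD45B and 0.0654 for TPM1, without sh-NC replicate 2 it was 0.0748 and 0.110 in the same order, and without sh-NC replicate 1 it was 0.0586 for TPM1.

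Of 13 tested BMP target genes ID1 alone passed, 0 rose and 12 did not pass, with a median of -0.08. In that list 3 genes had an unadjusted limma p under 0.05: ID1, ID3 and NOG. The shares over all tested genes were 7.45% called and 3225 of 12466 with an unadjusted limma p under 0.05. Among the partners of ID proteins 0 of 5 tested genes changed, with a median of -0.14, and 0 had an unadjusted limma p under 0.05. ELK1, an ETS factor and the most abundant of these, stood at 54.7 ± 2.37 FPKM in sh-CFB and 52.8 ± 1.88 in sh-NC (SD, n = 3 each).

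**Figure D4:**
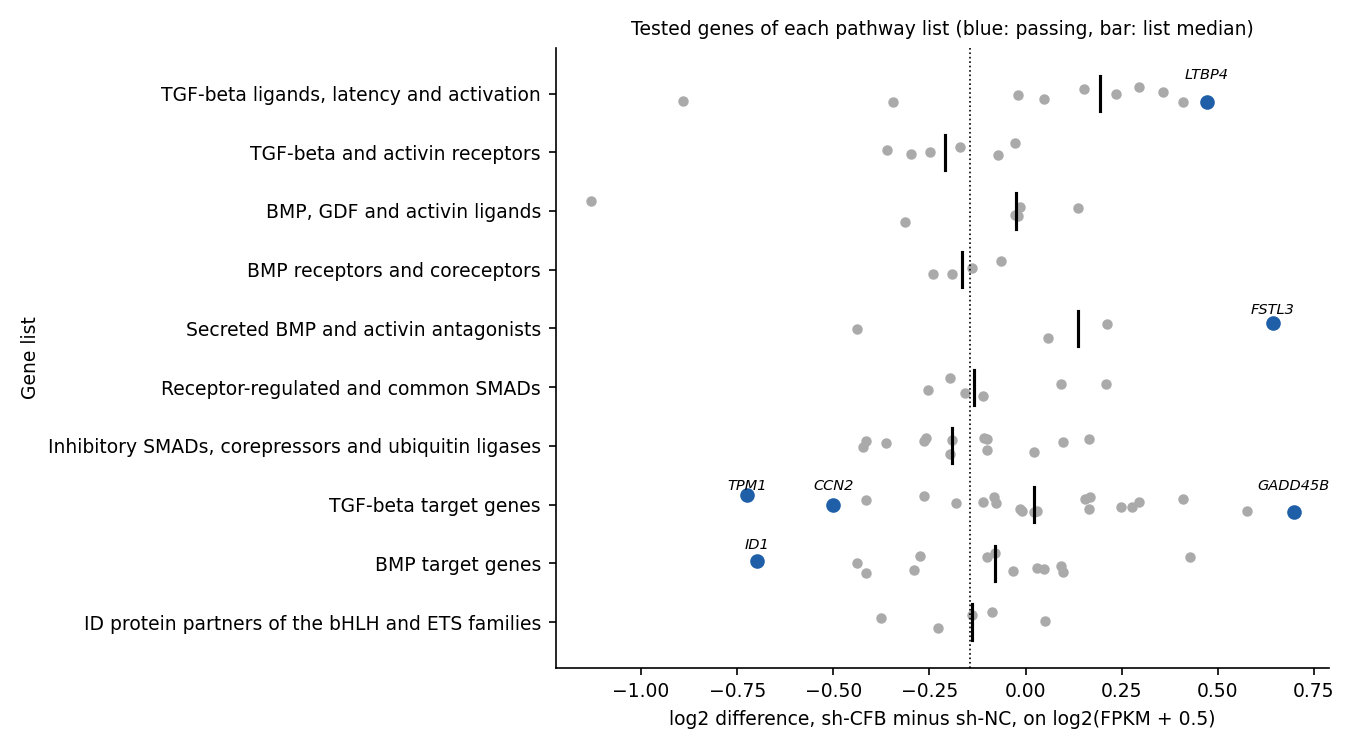
Log2 difference (x axis) of each tested gene in the 10 pathway lists, with genes that pass in blue, list medians as bars and the median tested gene as a dotted line. LTBP4, FSTL3 and GADD45B lie to the right and TPM1, ID1 and CCN2 to the left, while the receptor and SMAD lists hold no passing gene.

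**Figure D5:**
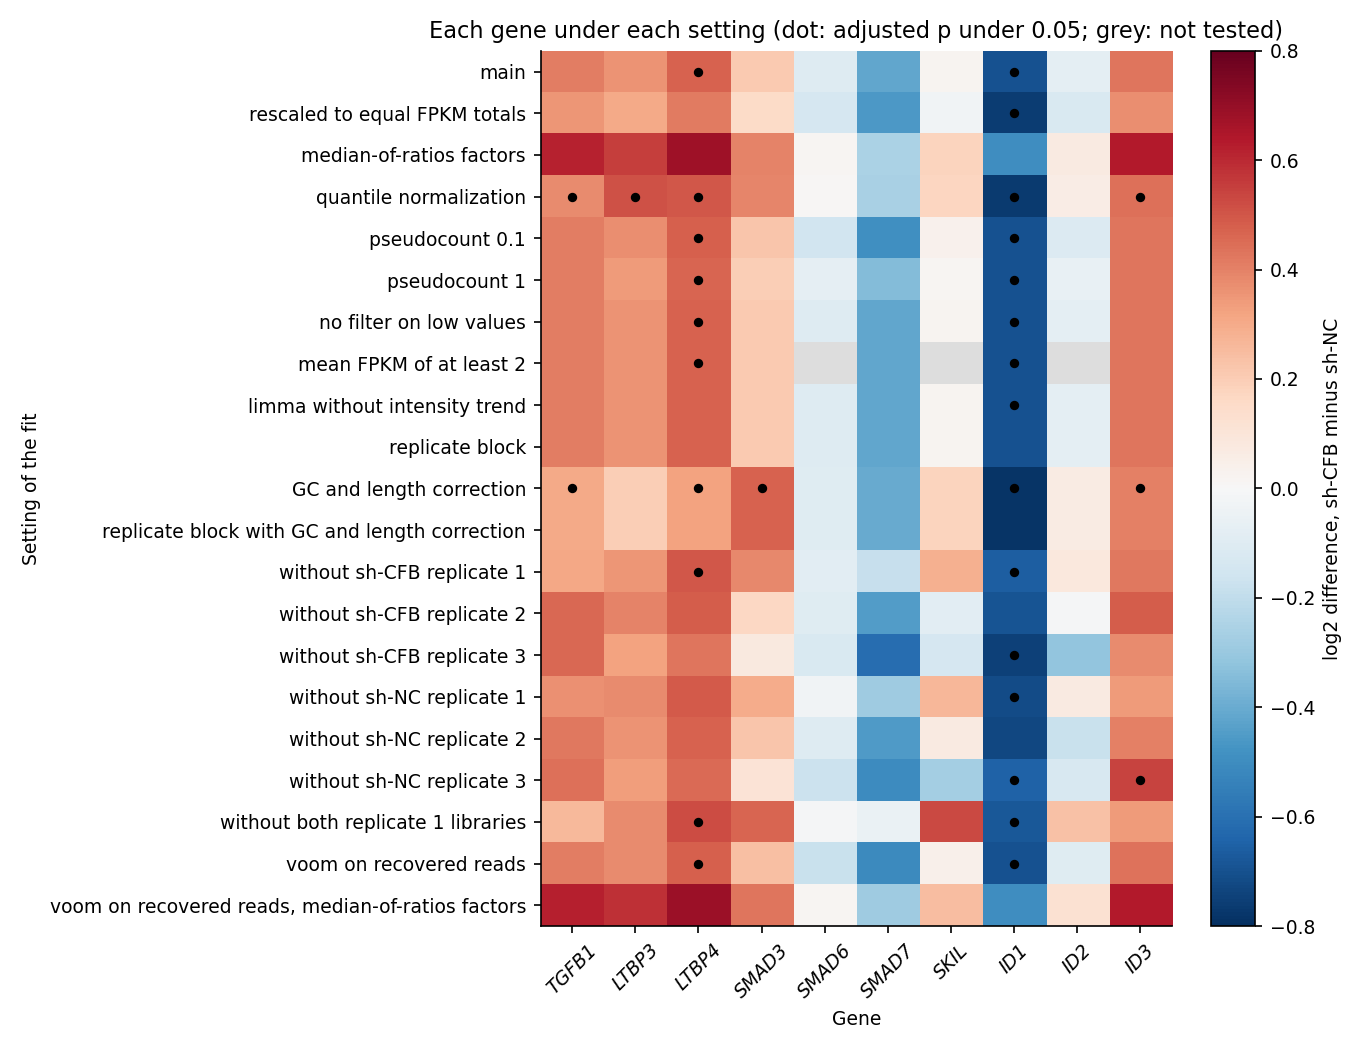
Log2 difference (colour, sh-CFB minus sh-NC) of each gene (x axis) under each setting of the fit (y axis), with dots for an adjusted p under 0.05 and grey where the filter left a gene out. ID1 is negative and LTBP4 positive in every row, with dots in 14 and 9 of the 20 rows below the first, while SKIL, SMAD6 and ID2 change sign.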

How the data were processed

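RNA of 6 NCI-H1299 libraries (TruSeq Stranded mRNA kit, per the labels' protocols) was deposited by the authors as one table of FPKM, with 1 column per library, all of which were used. The submitters' processing notes name FastQC 0.11.9, Trimmomatic 0.39, STAR 2.7.3a, featureCounts 2.0.1 and GRCh38. For the strand setting, annotation release, multi-mapping reads and FPKM formula, details were not given in the sources used here. Library totals were recovered from low values and annotated gene lengths. Each gene's length was the whole number nearest the annotated one that made all 6 values whole reads to within 0.02. Such a length was found for 99.99% of genes, so whole reads were the criterion of the search and not a check of it. Of the recovered lengths, 55.1% equalled the annotated length and 87.9% lay within 10% of it. A limit of 3 reads, which covers counting error only, equals 0.0375 to 0.0572 FPKM at a length of 2000 bases. A table of counts named in the labels was not used here.

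The test used limma 3.58.1 in R 4.3.3 (intensity trend, Benjamini-Hochberg adjustment at 0.05) on log2(FPKM + 0.5) over 12466 genes, those whose mean FPKM reached 0.5. The step was run on simulated data with true log2 differences of 1 and 1.5 in size, 100 genes each. It recovered 88 and 99 of them, with 21 false calls. The simulation gave every gene the same relative spread beyond counting error. A larger spread within a group, as SKIL had, was not simulated, so these counts need not hold for such genes. Smaller differences, such as those of LTBP4 and ID1, and GC differences between libraries were not simulated. Fold changes on this scale understate changes of low genes. The GC and length correction removed from each library a smooth fit (splines of 5 degrees of freedom each) over GC content and length, using GENCODE 29. Promoters came from RefSeq. Other settings were 3 scalings, 2 pseudocounts, 2 filters, no trend, a replicate block, voom on the recovered reads (chosen after seeing the data), and fits without each library and without both replicate 1 libraries. The planned edgeR and DESeq2 fits were not run, as no deposited counts were used. Other steps ran in Python 3.11.15 (scipy 1.17.1).

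The genes and lists were chosen with earlier results of these data known. Besides the 10 genes, each list was described by its called genes (up to 4 per direction) or, with none, its most abundant tested gene.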

Additional observations from a re-analysis of the deposited data

How the results depend on the processing

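ID1 stayed negative and TGFB1, LTBP3, LTBP4, SMAD3 and ID3 stayed positive in all 20 other settings, and SMAD7 stayed negative; LTBP4 passed in 9 and ID1 in 14. Of the 10 genes, 2 changed with all libraries, 1 with FPKM rescaled to equal totals or without the trend, 5 after quantile normalization or the GC and length correction, 0 with median-of-ratios factors, with or without voom, and 0 to 2 when single libraries were left out. The shares of all tested genes called were, in the same order, 7.45%, 6.57%, 4.26%, 8.83% and 10.7%. They were 1.65% with median-of-ratios factors, 2.55% with those factors and voom, and 0.160% to 4.33% when single libraries were left out. Over all genes 929 changed. The count was 206 with median-of-ratios factors, 318 with those factors and voom, 324 without a filter, 531 without the trend, and 20 (without sh-NC replicate 2) to 540 when single libraries were left out. Higher genes made up 23.4% of the 929, and 33.0%, 42.2%, 43.4% and 39.6% with median-of-ratios factors, quantile normalization, the GC and length correction, and voom with those factors. The cause of these moves was not tested.

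Same-numbered replicates did not deviate together (correlations across genes of -0.54, 0.07 and -0.45). The libraries also differed along GC content, so these correlations cannot tell whether the numbers pair the libraries. With the replicate block limma called 0 genes, and 0 of the 10, at 1770 and 4 with an unadjusted p under 0.05. With the block and the GC and length correction it also called 0 and 0, at 2469 and 5.

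Small differences changed sign. SMAD6 stood at 0.018 with median-of-ratios factors, 0.0086 after quantile normalization and 0.013 with voom and those factors. SKIL stood at -0.025 with equal totals and between -0.27 and 0.28 without single libraries. ID2 stood at 0.071, 0.060 and 0.12 in the same 3 scalings as SMAD6, 0.065 corrected for GC and length, with or without the replicate block, 0.24 without both replicate 1 libraries, and between -0.31 and 0.086 without single libraries. The mean over the ID genes was 0.070 with median-of-ratios factors and 0.087 with voom and those factors, and that over SKIL, SMAD6 and SMAD7 was 0.15 without both replicate 1 libraries. The ID mean minus the feedback mean was -0.06 after quantile normalization, -0.19 without both replicate 1 libraries and -0.08 to 0.24 without single libraries. With a mean FPKM of at least 2, SMAD6, SKIL and ID2 were not tested. From 63 to 799 reads stood behind each value of SMAD6, SMAD7, SKIL and ID2; whether that number limited the calls was not tested.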

Other observations

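Within a library, the ratio of SMAD7 to SMAD3, which a single scaling factor per library cannot change, was 0.256, 0.297 and 0.346 in the sh-CFB libraries, against 0.540, 0.457 and 0.497 in the controls. The groups did not overlap, although neither gene passed the test alone, and the log2 ratio differed by -0.74. The ratio was chosen after its values were seen, so it is given without a test. The ratio of TGFB1 to LTBP4, 4.27, 3.37 and 3.15 in the sh-CFB libraries, against 3.40, 3.80 and 4.02 in the controls, overlapped between groups.

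THBS1, thrombospondin 1, an activator of latent TGF-beta, stood at 3.55, 5.43 and 6.07 FPKM in the sh-CFB libraries, against 13.2, 8.71 and 7.47 in the controls. All sh-CFB libraries lay below the controls, and limma did not call it (adjusted p = 0.0711), while after the GC and length correction it passed (-0.59, adjusted p = 0.0260). It was named after its values were seen.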
